A study of Mus musculus with 6 samples.

Results

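Immune checkpoint ligands are cell surface or secreted molecules with which a tumor cell can restrain, and in some cases stimulate, the T cells, natural killer cells and macrophages around it. The genes for 10 of them (Cd274, Pdcd1lg2, Cd80, Cd86, Cd276, Vtcn1, Lgals9, Pvr, Nt5e and Cd47) were chosen by name for their known roles, with earlier results of these data known. All 10 were found among 30064 genes, each with 1 transcript cluster, the unit that the array reads for a gene. They were measured in tumor cells of MCRedAL allografts, a mouse prostate cancer line carrying the red fluorescent protein mCherry and grown in male mice. Tumors were either left untreated (3 samples, titled Intact) or taken from mice given degarelix, which blocks the gonadotropin-releasing hormone receptor and so withdraws androgen (3 samples, titled 7dPC, a tag that the labels do not explain). Degarelix was injected under the skin at a tumor size of about 500 mm2, as the labels write the unit. The sources used here do not give the host strain or age, whether the line is 1 clone, or the time of sampling. The sort kept mCherry positive cells that lacked CD45, CD11b and the macrophage antigen encoded by Adgre1, so tumor cells were meant to be kept and leukocytes removed. The labels call the samples biological replicates without saying more of their origin.

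As background, T cells are activated or held back by pairs of surface molecules. PD-L1 and PD-L2, the products of Cd274 and Pdcd1lg2, engage the inhibitory receptor PD-1. CD80 and CD86 are shared by the activating receptor CD28 and the inhibitory receptor CTLA-4. The B7 family members B7-H3 (Cd276) and B7-H4 (Vtcn1) restrain T cells through less settled receptors, galectin-9 (Lgals9) binds TIM-3, and CD155 (Pvr) binds the inhibitory receptor TIGIT and the activating receptor CD226. CD73 (Nt5e) makes the immunosuppressive nucleoside adenosine outside the cell, and CD47 gives macrophages a signal not to engulf the cell. Interferon gamma is a known inducer of Cd274 in many cell types.

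The comparison asked whether the transcripts of these ligands differed in the tumor cells after androgen withdrawal. Lgals9 rose after degarelix, by 0.40 on the log2 scale (SE 0.08) or 1.32-fold, and was the only one of the 10 genes to pass the test in limma at an adjusted p under 0.05. The other 9 did not pass. Over all genes 11.7% passed, 4.20% as higher and 7.53% as lower, and 1 of 10 ligand genes is close to that share. Among the 9516 genes whose means lay above the brightest background row in both groups, 21.9% passed, 7.25% as higher. The median change of the 10 genes was 0.12, against 0.04 over all genes and -0.07 over genes above the background rows. Of the 10 changes 8 were above 0, as were 58.6% of the changes of all genes and 38.1% of those of genes above the background rows. In 4 of the 10 (Lgals9, Cd274, Vtcn1 and Pdcd1lg2) the degarelix values all lay above the untreated values, where 31.2% of all genes were without overlap in either direction and 14.8% with degarelix higher. Among genes above the background rows 47.2% were without overlap. The count of genes past the test rested on single samples and on scaling: it was 0 without degarelix replicate 2 or with each array centred on its median, and 2 without untreated replicate 2 or with gene-by-gene array weights.

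Levels were read against the array's 23 background rows, which hold probes matching no mouse transcript and ranged from 2.14 to 6.93 on the log2 scale. Their brightest group mean was 6.71 in untreated and 6.73 in degarelix samples. Cd276, Vtcn1, Lgals9, Pvr, Nt5e and Cd47 exceeded all 23 background rows on each of the 6 arrays, and 31.7% of all genes had both group means above the brightest row. Cd274 exceeded 18 to 23 of the background rows, Cd80 and Cd86 13 to 15, and Pdcd1lg2 13 on each array. With the brightest row as the limit, a low transcript level and no transcript were not told apart for these 4 genes, and a change could have been missed. The background rows were not matched to the probes of each gene. Both group means of all 10 genes lay above the median background row. Since probes differ in brightness, levels of different genes were not ranked against each other.

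**Figure D1:**
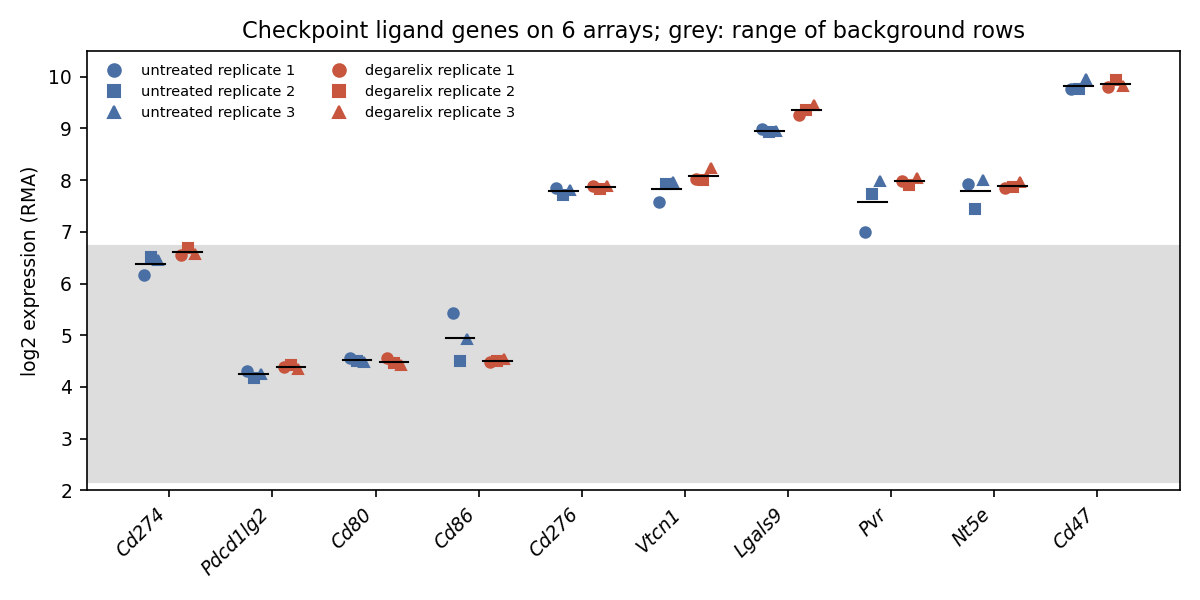
Log2 expression of the 10 ligand genes on each of the 6 arrays (blue, untreated; red, degarelix; marker shape, replicate number; black lines, group means), with the range of the background rows' group means (2.17 to 6.73) in grey. The plot shows 6 genes above the grey band, 4 within it, and the separation of the groups for Lgals9 (untreated mean 8.96, degarelix mean 9.36).

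Lgals9, which encodes galectin-9, was the ligand gene that passed the test. Galectins are lectins that bind beta-galactosides on glycoproteins, and galectin-9 bound to TIM-3 can restrain T cells. Lgals9 was at 8.99, 8.93 and 8.95 in untreated replicates 1 to 3 and at 9.25, 9.36 and 9.46 in degarelix replicates 1 to 3 (log2). The untreated values lay within 0.05 of each other, and every degarelix value was higher. The means were 8.96 ± 0.03 and 9.36 ± 0.11 (SD, n = 3 per group), a change with a 95% interval of 0.23 to 0.57 (limma adjusted p = 0.0121). The change was 0.42 without untreated replicate 1 (limma adjusted p = 0.016) and 0.35 without degarelix replicate 3 (limma adjusted p = 0.0266). Without degarelix replicate 2 it was 0.40 with a limma adjusted p of 0.0528, and with median centring 0.35 with a limma adjusted p of 0.0521. By rank of p Lgals9 stood at place 1493 of 30064 genes.

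Among 10467 other genes with a group mean above the brightest background row, those whose values ran most like Lgals9 over the 6 arrays were Gm6977, Adgrg1, an adhesion receptor gene, and Rel, an NF-kB subunit gene (Pearson r = 0.9952, 0.9934 and 0.993). In all 7 genes reached an r of at least 0.99, and the arrays share their 2 groups, so any gene with a like shift scores high. Rel was at 8.98 ± 0.07 and 9.44 ± 0.12 (SD, n = 3 per group). Of 9 other genes named for galectins, looked at after the values of Lgals9 were seen, 2 passed the test and 7 did not. Lgals3, also in the list of other T cell ligands, rose from 7.43 ± 0.11 to 8.03 ± 0.05 (SD, n = 3; limma adjusted p = 0.00201), and Lgals3bp, the gene of a galectin-binding glycoprotein, from 8.42 ± 0.16 to 8.82 ± 0.14 (SD, n = 3; limma adjusted p = 0.0421). Lgals1 was at 11.84 ± 0.25 and 12.09 ± 0.02 and did not pass the test (SD, n = 3; limma adjusted p = 0.215). Of the rest, Lgals8 and Lgals7 had changes of 0.21 and 0.25 (limma adjusted p = 0.0747 and 0.0897), and Lgals12, Lgals2, Lgals4 and Lgalsl had changes of -0.06 to 0.16.

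The ligands of PD-1 did not pass the test. Cd274 was at 6.17, 6.52 and 6.46 in untreated and at 6.56, 6.69 and 6.57 in degarelix replicates 1 to 3 (log2). The groups did not overlap, but the gap between untreated replicate 2 and degarelix replicate 1 was narrow, and untreated replicate 1 was the lowest of all. The means were 6.38 ± 0.19 and 6.61 ± 0.07 (SD, n = 3 per group), a change of 0.23 with a 95% interval of -0.002 to 0.46 (limma adjusted p = 0.195). Without untreated replicate 1 the change was 0.12 (limma adjusted p = 0.314). The upper end of the interval corresponds to a 1.38-fold rise on the RMA scale. Pdcd1lg2 was at 4.30, 4.18 and 4.25 in untreated and 4.39, 4.43 and 4.34 in degarelix samples, a shift of all 3 values within the background range. Its change was 0.14 (SE 0.07, limma adjusted p = 0.227), and it passed only with gene-by-gene array weights, at 0.20 (limma adjusted p = 0.0269).

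Cd274 and Pdcd1lg2 lie side by side on the chromosome in RefSeq. Of the genes next to the pair, Plgrkt, before Cd274, had a change of -0.11 (SE 0.07) and Ric1, after Pdcd1lg2, of -0.38 (SE 0.12), neither past the test (limma adjusted p = 0.337 and 0.0815). The next genes out, Rln1 before Plgrkt and Ermp1 after Ric1, had changes of -0.06 and 0.09 (limma adjusted p = 0.584 and 0.425). Since no gene of this stretch passed the test, the signs are not read as a difference between the pair and its neighbours. The plot of changes with their intervals shows all 10 genes in order.

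**Figure D2:**
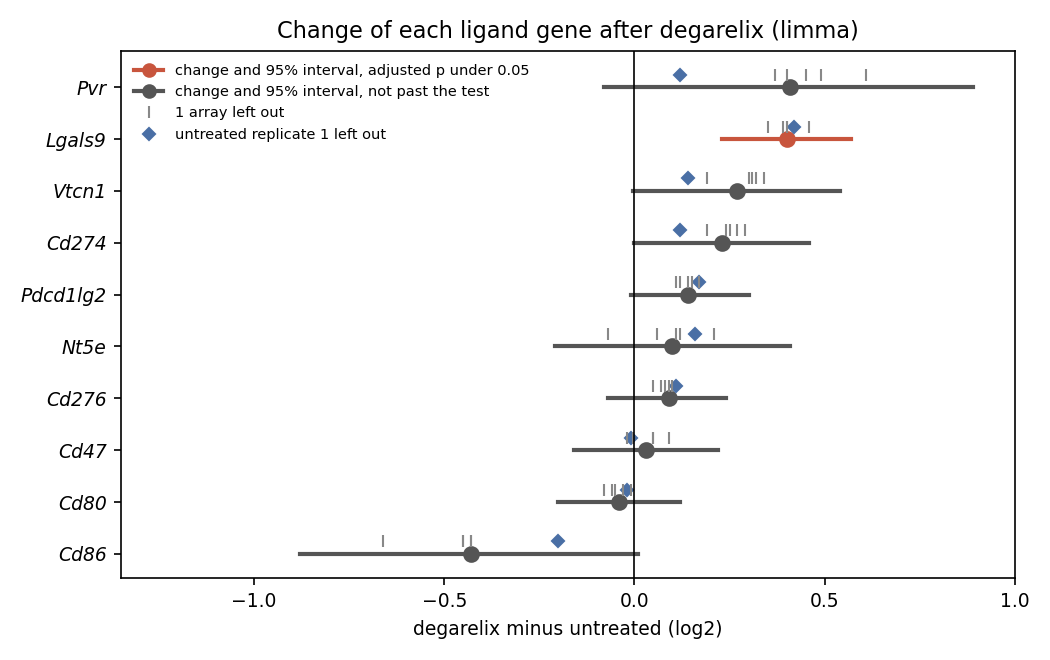
Change of each ligand gene, as the degarelix mean minus the untreated mean (log2), with its 95% interval from limma; red marks the gene with an adjusted p under 0.05, grey ticks the change with 1 array left out, and blue diamonds the change without untreated replicate 1. Lgals9 keeps a change of 0.35 to 0.46 whichever array is left out, while the changes of Pvr (0.41), Vtcn1 (0.27), Cd274 (0.23) and Cd86 (-0.43) shrink to 0.12, 0.14, 0.12 and -0.20 without untreated replicate 1.

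The upstream sequences of 3 of the 4 genes without overlap are shown because they share a short motif of the interferon response, and were picked for that after the values and matches were seen. RefSeq (GRCm38.p6) held a window of 250 bases before to 50 after the start for 8 of the 10 genes, and Cd86 and Pvr were not in the table. Both strands were searched for TTTCNNTTT, a core of the interferon-stimulated response element, and the windows of Lgals9, Cd274, Pdcd1lg2 and Cd80 held it, against 10.6% of 32851 promoter windows of the same length. The window of Vtcn1, the remaining gene without overlap, held no match to this or to the other motifs searched, nor did those of Cd276, Nt5e and Cd47. The windows with the T-rich motif had 46.0 to 58.0% G and C bases and that of Vtcn1 53.7%. Those of Cd276, Nt5e and Cd47 had 71.0 to 78.3%. The share over all windows was not matched for base composition. The lines give the 250 upstream bases, 5′ to 3′ on the strand of the gene, with matches in capitals: Lgals9 at chr11:78984925-78985174 (minus strand), Cd274 at chr19:29367188-29367437 (plus strand) and Pdcd1lg2 at chr19:29410669-29410918 (plus strand).
Lgals9: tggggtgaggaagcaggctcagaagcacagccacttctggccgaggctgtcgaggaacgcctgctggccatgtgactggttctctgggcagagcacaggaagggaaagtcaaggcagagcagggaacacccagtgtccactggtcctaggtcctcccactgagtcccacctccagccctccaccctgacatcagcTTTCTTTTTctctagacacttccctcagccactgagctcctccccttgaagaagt
Cd274: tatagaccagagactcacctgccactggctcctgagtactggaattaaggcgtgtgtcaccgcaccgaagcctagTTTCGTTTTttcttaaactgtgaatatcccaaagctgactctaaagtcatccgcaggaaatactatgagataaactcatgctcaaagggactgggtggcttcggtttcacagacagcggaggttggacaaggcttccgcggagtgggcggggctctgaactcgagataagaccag
Pdcd1lg2: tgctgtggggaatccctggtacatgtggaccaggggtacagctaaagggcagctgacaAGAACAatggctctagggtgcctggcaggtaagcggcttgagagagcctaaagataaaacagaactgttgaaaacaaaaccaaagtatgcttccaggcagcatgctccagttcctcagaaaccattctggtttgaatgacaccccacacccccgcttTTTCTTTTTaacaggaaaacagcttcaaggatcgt

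The match in Lgals9 began at position -55 from the start site and read TTTCTTTTT, and a further match, TTTCTGTTT, began at position 15, past the printed bases. The match in Cd274 read TTTCGTTTT and that in Pdcd1lg2 TTTCTTTTT. Capitals nearer the 5′ end of the Pdcd1lg2 line mark AGAACA, the reverse complement of TGTTCT, one arm of the androgen and glucocorticoid response elements, which 19.0% of all windows held. Cd80, whose values did not separate the groups, held both motifs too. No ligand gene's window held TTCNNNGAA (a site of STAT factors, in 8.3% of all windows), GGGANTTTC (NF-kB, 1.11%), ACANNNTGT (the core of the androgen response element, 6.85%) or CACGTG (an E-box, 7.15%). A match is a run of letters, and factor binding was not measured here.

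The ligands of CD28 and CTLA-4 lay within the background range. Cd80 was at 4.56, 4.51 and 4.49 in untreated and at 4.56, 4.46 and 4.42 in degarelix samples, with a change of -0.04 (95% interval -0.20 to 0.12, limma adjusted p = 0.727). Cd86 was at 5.42, 4.50 and 4.92 in untreated replicates 1 to 3 and at 4.49, 4.50 and 4.54 in degarelix samples. Untreated replicate 2 was level with the degarelix samples, and replicates 1 and 3 stood above them. The change of -0.43 (SE 0.19, limma adjusted p = 0.197) missed the threshold. It was -0.20 without untreated replicate 1 (limma adjusted p = 0.298) and passed, at -0.66, without untreated replicate 2 (limma adjusted p = 0.0285).

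Cd86 is a gene of macrophages and dendritic cells, and macrophage and pan-leukocyte markers followed the same order among the untreated samples. A high value in untreated replicate 1 was not particular to them. Of the endothelial markers 6 of 7 were highest on that array, of the dendritic cell markers 4 of 8 and of the neutrophil markers 0 of 7. All 12 macrophage and monocyte markers and all 7 pan-leukocyte markers were highest in untreated replicate 1, next in replicate 3 and lowest among the untreated in replicate 2. Untreated replicate 3 exceeded every degarelix sample for 9 of the 12 and 5 of the 7, as it did for Cd86, but not for Cd14, for example. Lyz2, the lysozyme gene of myeloid cells, was at 9.02, 6.26 and 7.65 in untreated replicates 1 to 3 and at 5.51, 5.98 and 6.27 in degarelix samples. Tyrobp, a signalling adaptor gene of myeloid cells, was at 8.39, 6.11 and 6.84 and at 6.08, 6.06 and 6.21. Summed on the linear scale, the macrophage list ranged from 788 to 2050 in untreated and from 862 to 885 in degarelix samples, and the pan-leukocyte list from 333 to 760 and from 339 to 401. No list held a marker at 0, since RMA values have none. The genes of the sorted-out antigens, Ptprc, Itgam and Adgre1, were within the background range on all arrays, with highest values of 4.47, 6.15 and 6.05, each in untreated replicate 1. The dendritic cell gene Itgax was at 4.85 to 5.41. None of the macrophage or pan-leukocyte markers passed the test between the groups in limma (2 of 12 and 0 of 7 had an unadjusted p under 0.05). The part of these markers in the values of Cd86 was not tested.

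**Figure D3:**
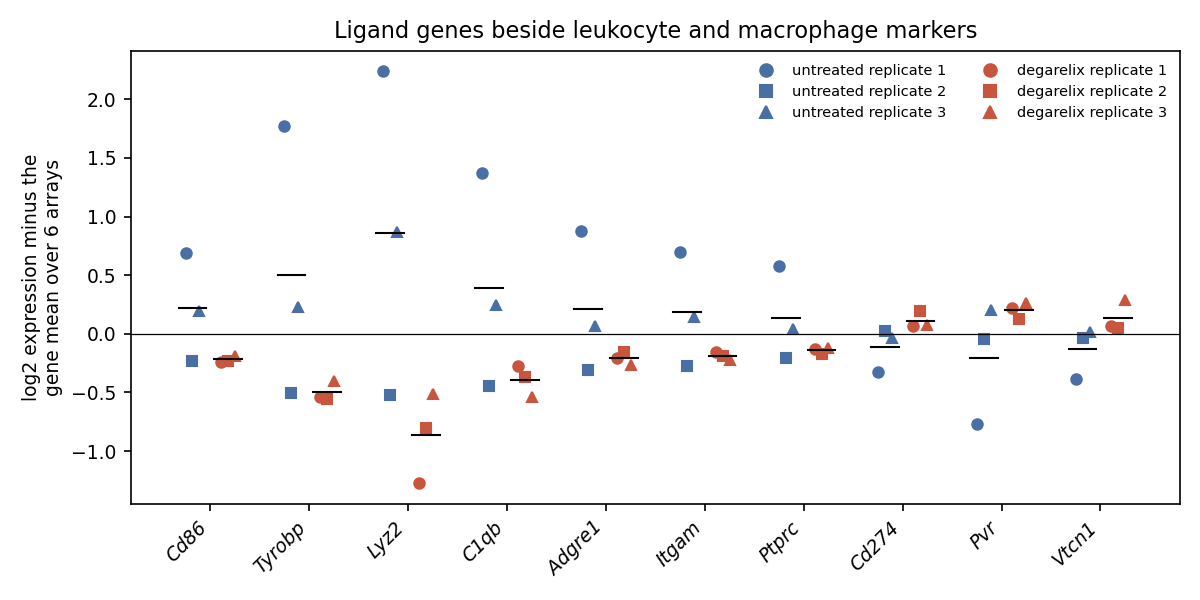
Log2 expression minus each gene's mean over the 6 arrays for Cd86, 6 leukocyte and macrophage markers and 3 other ligand genes (blue, untreated; red, degarelix; marker shape, replicate number; black lines, group means). Untreated replicate 1 (blue circle) is the highest point for Cd86 (5.42) and for the markers and the lowest for Cd274 (6.17), Pvr (7.00) and Vtcn1 (7.57).

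The B7 family members outside the PD-1 and CD28 systems were well above background. Cd276 was at 7.84, 7.71 and 7.80 in untreated and at 7.89, 7.83 and 7.88 in degarelix samples. Its groups overlapped, and the 95% interval of the change was -0.07 to 0.24, with its upper end at a 1.18-fold rise (limma adjusted p = 0.457). Other scalings of the arrays gave changes of Cd276 from 0.04 to 0.16, none past the test. Vtcn1 was at 7.57, 7.92 and 7.97 in untreated and at 8.02, 8.0 and 8.24 in degarelix samples, without overlap. The lowest value came from untreated replicate 1 and the highest from degarelix replicate 3. The means were 7.82 ± 0.22 and 8.09 ± 0.13 (SD, n = 3 per group), a change of 0.27 (95% interval -0.005 to 0.54, limma adjusted p = 0.198) that missed the threshold. Without untreated replicate 1 it was 0.14 (limma adjusted p = 0.33).

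Pvr had the widest spread among the ligand genes. It was at 7.00, 7.73 and 7.98 in untreated and at 7.99, 7.90 and 8.04 in degarelix samples, so that untreated replicate 1 stood apart and untreated replicate 3 reached the degarelix values. The means were 7.57 ± 0.51 and 7.98 ± 0.08 (SD, n = 3 per group). Its change of 0.41 was as large as that of Lgals9, with an SE of 0.21 in place of 0.08 (limma adjusted p = 0.266), and was 0.12 without untreated replicate 1 (limma adjusted p = 0.405). The interval of the change, -0.08 to 0.89, does not exclude a 1.85-fold rise.

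Nt5e, the adenosine-forming enzyme, was at 7.92, 7.45 and 8.01 in untreated and at 7.84, 7.86 and 7.96 in degarelix samples. The degarelix values lay between the untreated ones, and the change was 0.10 (95% interval -0.21 to 0.41, limma adjusted p = 0.666). It was -0.07 without untreated replicate 2. Cd47 was at 9.76, 9.76 and 9.95 in untreated and at 9.80, 9.94 and 9.81 in degarelix samples. The change of 0.03 had a 95% interval of -0.16 to 0.22, so that a rise above 1.16-fold lay outside the interval (limma adjusted p = 0.848).

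Across the 10 genes the untreated samples varied more than the treated ones in 8, by the range of their 3 values. Untreated replicate 1 held the lowest of the 6 values for Cd274, Vtcn1, Pvr and, by less than the second decimal, Cd47, and the highest for Cd86. The shares of all genes with such ranges or extremes were not worked out, so the counts are not read as traits of the ligand genes. Over all genes the array weights were lowest for degarelix replicate 3 (0.387) and untreated replicate 1 (0.444). The summed prostate epithelium markers were also lowest on that array, 4950 against 5610 to 7070 on the others. Of the 8 measured markers 1, Krt8, was lowest there, and Krt19, Epcam and Cdh1 were the highest of the untreated samples. The sorted cells were checked against those markers. Krt8 (11.25 to 12.09), Cldn3 (10.29 to 10.69) and Foxa1 (9.37 to 9.60) were above the background rows on all arrays, whereas Krt18 (5.38 to 5.82), the keratin partner of Krt8, and the adhesion genes Epcam (3.79 to 3.98) and Cdh1 (4.80 to 5.07) were not. Fibroblast markers summed to 1960 to 2310 in untreated and 2310 to 3630 in degarelix samples, with the highest sum in degarelix replicate 3, where Lgals9, Vtcn1 and Pvr were also highest. Of 8 fibroblast markers Dcn and Fbln1 rose, and of 7 endothelial markers, with sums of 638 to 807 and 574 to 597, Vwf fell (limma adjusted p = 0.0147, 0.000606 and 0.00747). Among the epithelial markers the keratin gene Krt19 rose, from 7.29 ± 0.25 to 9.17 ± 0.07, and Cldn3 fell by 0.31 (SD, n = 3; limma adjusted p = 8.77e-05 and 0.0385). The part of such cells in the ligand values was not tested, and fewer cells of a type and less RNA per cell cannot be told apart in bulk RNA. The sums of the dendritic cell (220 to 258), neutrophil (156 to 175), T and NK cell (211 to 260) and B cell (124 to 145) lists had these ranges over the 6 arrays. None of their markers had both group means above the brightest background row, against 6 of 8 fibroblast and 2 of 7 endothelial markers. These sums are therefore not read as amounts of such cells. Ly6g, of the neutrophil list, rose within the background range, to 5.04, 5.11 and 4.73 from 4.51, 4.60 and 4.63 (limma adjusted p = 0.0473). Cldn3 and Ly6g lost their calls under 8 and 10 of the 15 alternatives.

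Other genes of the same systems were taken from lists named for their function and chosen with earlier results of these data known. Over all genes 4.20% passed as higher and 7.53% as lower, and 21.9% of genes above the background rows passed. Both means lay above the brightest background row for 5 of 23 other T cell genes and 22 of 23 genes acting on Cd274. The same held for 5 of 13 adenosine, 5 of 9 nectin and 10 of 16 phagocytosis genes. The counts of the lists were not tested against these shares. Of 23 other genes that act on T cells, mostly ligands but with the enzyme genes Ido1 and Tdo2 and the receptor gene Cd40 among them, 4 rose and 1 fell (median change 0.10). Tnfsf10, which encodes the death ligand TRAIL, rose from 6.59 ± 0.27 to 7.76 ± 0.24, and Ceacam1, an adhesion molecule that also binds TIM-3, from 10.13 ± 0.27 to 11.01 ± 0.05 (SD, n = 3; limma adjusted p = 0.00228 and 0.00336). Tnfsf9, the ligand of the costimulatory receptor 4-1BB, fell from 7.03 ± 0.37 to 6.19 ± 0.07 (SD, n = 3; limma adjusted p = 0.0125), and lost the call without degarelix replicate 1 (limma adjusted p = 0.0564). The largest rise of the list, singled out after its value was seen, was that of Ido1, which encodes a tryptophan-degrading enzyme that restrains T cells. Ido1 was at 6.34, 6.80 and 6.48 in untreated and at 7.97, 8.93 and 7.48 in degarelix samples, without overlap (change 1.59, SE 0.31, limma adjusted p = 0.0144). The untreated means of Ido1 and Tnfsf10 and the degarelix mean of Tnfsf9 lay within the background range, so the size of these changes is uncertain. Lgals3 was the other riser.

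**Figure D4:**
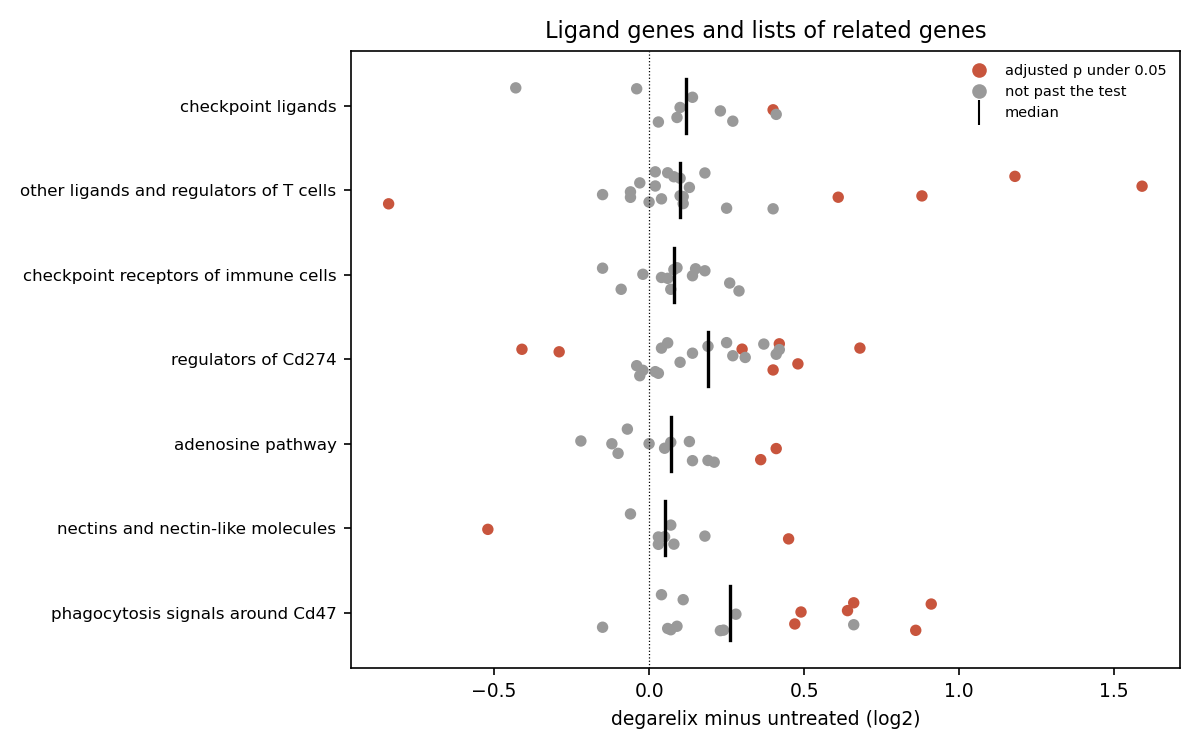
Change after degarelix (log2) of the 10 ligand genes and of the members of 6 lists of related genes, 1 point per gene with random vertical scatter; red marks an adjusted p under 0.05 in limma and the black bar the median of each list. The medians lie between 0.05 and 0.26, and no gene of the list of checkpoint receptors is red.

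Of the genes acting on Cd274, 5 of 23 rose and 2 fell (median 0.19). In this list 22 of 23 genes lay above the background rows, where 21.9% of genes passed, against 11.7% of all genes. The interferon and cytokine signalling genes Stat3 and Jak1 rose by 0.40 (SE 0.07) and 0.42 (SE 0.09), and the transcription factor gene Myc by 0.68 (SE 0.13), with limma adjusted p of 0.00957, 0.0199 and 0.0135. Cmtm4, which encodes a membrane protein that protects PD-L1 from degradation, fell from 8.22 ± 0.06 to 7.81 ± 0.10 (SD, n = 3; limma adjusted p = 0.012), while its paralog Cmtm6 was at 8.11 ± 0.25 and 8.09 ± 0.08 (limma adjusted p = 0.933). Irf1, the interferon-induced activator of Cd274, was at 7.97, 7.65 and 7.48 in untreated and at 8.0, 8.12 and 8.23 in degarelix samples and did not pass (limma adjusted p = 0.0661). The remaining calls were the receptor genes Ifngr1 and Ifngr2, which rose, and the kinase gene Csnk2a1, which fell. They lost their calls under 8, 4 and 11 of the 15 alternatives. The count of 7 was 4 without untreated replicate 3 or degarelix replicate 2, 3 without degarelix replicate 1 or with median centring, and 13 with gene-by-gene array weights. Jak1 lost its call without degarelix replicate 1 or untreated replicate 3 and with median centring (limma adjusted p = 0.0643, 0.0536 and 0.0812), and Cmtm4 without degarelix replicate 1 (limma adjusted p = 0.0507).

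Around CD73, 2 of 13 genes of the adenosine pathway rose and none fell (median 0.07). These were Entpd2, from 5.93 ± 0.03 to 6.34 ± 0.12, and Entpd3, from 6.21 ± 0.09 to 6.57 ± 0.07, both enzymes that degrade extracellular ATP upstream of CD73 (SD, n = 3; limma adjusted p = 0.0122 and 0.0173). All 4 means lay within the background range. Entpd1, which encodes the related enzyme CD39, was at 4.81 ± 0.18 and 4.74 ± 0.04 (limma adjusted p = 0.677). Entpd3 no longer passed when untreated replicate 2, untreated replicate 3 or degarelix replicate 2 was left out (limma adjusted p = 0.0535, 0.0667 and 0.074), and 1 gene of the list then remained. With gene-by-gene array weights 4 genes of the list passed.

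Beside Pvr, its relatives in the nectin family moved in opposite directions. Nectin2, whose product also binds TIGIT and CD226, rose from 7.95 ± 0.11 to 8.40 ± 0.05, and Nectin1, an adhesion molecule, fell from 8.20 ± 0.24 to 7.68 ± 0.11 (SD, n = 3; limma adjusted p = 0.00888 and 0.0264). The other 7 of 9 measured genes did not pass (median of the 9 genes 0.05). Nectin2 was at 8.08, 7.88 and 7.90 in untreated and at 8.45, 8.40 and 8.34 in degarelix samples. Nectin1 lost its call with median centring (limma adjusted p = 0.0527) and without untreated replicate 2 or 3 (0.0696 each) or degarelix replicate 1 or 2 (0.0824 and 0.0986).

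Of 16 genes of phagocytosis signals around Cd47, 6 rose and none fell (median 0.26). As rises, 4.20% of all genes passed and 7.25% of those above the background rows. The phosphatidylserine bridging protein genes Gas6 and Mfge8 rose from 6.66 ± 0.11 to 7.32 ± 0.16 and from 9.40 ± 0.07 to 9.90 ± 0.13, and the scramblase family gene Plscr1 from 6.47 ± 0.29 to 7.39 ± 0.02 (SD, n = 3; limma adjusted p = 0.00401, 0.00773 and 0.00306). The untreated means of Gas6 and Plscr1 lay within the background range, as did both means of Pros1. The kinase gene Ptk2b rose by 0.64 (SE 0.09; limma adjusted p = 0.00315). The others to rise were Pros1 and Thbs2, a gene that fibroblasts also express and that lost its call under 8 of the 15 alternatives. In the degarelix samples Gas6, Mfge8, Pros1, Ptk2b and Thbs2 were highest in replicate 3 and lowest in replicate 2, and Plscr1 was not. The summed fibroblast markers had the same order (2770, 2310 and 3630 in degarelix replicates 1 to 3). The part of fibroblasts in these rises was not tested, and the share of all genes with this order was not worked out. Cd24a, a further signal against engulfment, and Calr, which promotes it, had changes of 0.24 and 0.09 that did not pass (limma adjusted p = 0.337 and 0.494).

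The list of immune cell receptors holds receptors of these ligands and, with Icos, Lag3, Btla, Cd160 and Cd244a, checkpoint or costimulatory receptors of other ligands. None of its 13 measured genes passed the test in limma, 1 had an unadjusted p under 0.05, and none had both means above the brightest background row (median change 0.08). With gene-by-gene array weights 4 passed, and without degarelix replicate 3 there was 1. The smallest p values were those of Tigit, at 5.03 ± 0.01 and 5.32 ± 0.19, and Btla, at 3.45 ± 0.12 and 3.60 ± 0.07 (SD, n = 3; limma adjusted p = 0.0981 and 0.281). Havcr2, which encodes TIM-3, the receptor of galectin-9, was at 3.87, 3.72 and 4.22 in untreated and at 3.92, 3.84 and 3.78 in degarelix samples, all within the background range.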

How the data were processed

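RNA of sorted tumor cells was hybridised to Affymetrix MTA 1.0 arrays, 1 per sample, 3 untreated and 3 degarelix. The deposited table holds log2 values that the authors made with Affymetrix Expression Console and RMA, per the submitters' processing notes, which name no version or setting. RMA fits background, equalises the arrays' distributions and summarises probes, which compresses changes of dim genes. The log2 scale was read from the values (1.69 to 13.89; array medians 4.70 to 4.84). Of 72688 rows, 6732 control or background rows were left out. Of 65956 transcript clusters 30604 had 1 gene symbol, 2146 several and 33206 none. Symbols were updated through Entrez identifiers or unique synonyms in a RefSeq table (GRCm38.p6), which changed 1131 of them, and the brightest cluster of each of 30064 genes was kept, with no filter on dim genes. The number of arrays limits the precision.

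Groups were compared by the moderated two-sided test of limma (lmFit, eBayes; version 3.58.1, run in R 4.3.3), its p-values adjusted by Benjamini-Hochberg over the 30064 genes and called under 0.05, after testing the script on simulated data. The p-values set each group difference against the spread within the groups, moderated over all genes. Whether that spread is between animals, tumors or sorts is not known, since the origin of the replicates is not given. Of the genes that passed, 35.8% were higher, against 26.5% with median centring and 50.9% with gene-by-gene array weights. Ligand genes and lists were chosen with earlier results of these data known. Named were all 10 ligand genes, up to 4 genes past the test per list (or the 2 with the smallest p), the 3 genes most like each ligand gene that passed, defining markers and markers that passed; others are marked as chosen afterwards or were named as relatives or partners of a ligand gene with their values seen. Marker sums add unlogged values. Alternatives were other scalings, variance models and array weights, a filter on dim genes, other choices of cluster, the replicate number as a block and leaving out each sample. Figures were drawn with matplotlib 3.10.9.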

Additional observations from a re-analysis of the deposited data

How the results depend on the processing

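Of 150 alternative values for the 10 ligand genes (15 settings each), 141 kept their direction and their side of the threshold. Lgals9 lost its call under 2 settings (median centring, and without degarelix replicate 2), Pdcd1lg2 gained one with array weights and Cd86 one without untreated replicate 2. Signs turned only for values near 0: Cd47 was -0.02 with median centring and ran from -0.02 to 0.09 over the samples left out in turn, and Nt5e from -0.07 to 0.21. The number of ligand genes past the test was 0 with median centring, 2 with array weights and 0 to 2 over the samples left out. The number of ligand genes above background was 6 with each sample left out and with the 95th percentile of the background rows as the limit, and 10 with the median background row. The number without overlap of the groups was 4 to 6 over the samples left out, an alternative added after seeing the data, as were those for the related lists. The causes of these differences were not tested. Brightness over the background rows limits what could be seen for Cd274, Pdcd1lg2, Cd80 and Cd86.

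Same-numbered samples of the 2 groups were not shown to be pairs: the correlations of their deviations from the group means were 0.16, 0.04 and 0.20, though every sample correlated best with its own number. With the replicate number as a block, 1 ligand gene passed, Lgals9 at 0.40 (limma adjusted p = 0.0245), and over all genes 1435 were higher and 2374 lower, against 1264 and 2265 without it.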
